A study of Salmo salar with 16 samples.

Results

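The data concern the transcripts of cytochrome c oxidase subunit 1 (mtco1, probe C188R069) and subunit 2 (mtco2, probe C060R108) in the liver of Atlantic salmon (Salmo salar), which are 2 of the 43689 probes on the array and 2 of the 25061 that were measured on at least 12 of 16 arrays. Both were selected on their measured values, as the study lists them as lower in fish fed the high ω6 diet in a rank-based comparison of 8 of the 16 fish (those on the slides called C and D below). The diet difference in those fish is therefore given below as a description with no test. The values of the other 8 fish, on slides A and B, were not part of that comparison. Covariation and spread were not criteria of the choice, but where they are computed with the fish of slides C and D they are affected by it.

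Cytochrome c oxidase is complex IV of the respiratory chain, the enzyme of the inner mitochondrial membrane that passes electrons from cytochrome c to oxygen and pumps protons. Subunit 1 carries the heme and copper centre where oxygen is reduced, and subunit 2 carries the copper centre that receives the electrons from cytochrome c. Both subunits are encoded by the mitochondrial genome, whereas most other subunits of the complex are encoded in the nucleus. In vertebrates the mitochondrial genes are transcribed as long precursors that are then cut into single RNAs, and a liver cell, which is rich in mitochondria, holds many copies of this genome.

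Liver RNA was taken from 8 fish fed a diet with a high ω6 to ω3 fatty acid ratio (high ω6) and 8 fish fed a diet with a low ratio (high ω3), and hybridized to 16 salmonid oligonucleotide arrays. All fish were post-smolts of 203 g on average at the start, kept in seawater under constant light, fed for 12 weeks and fasted before sampling, and the diets differed in their mixes of linseed, soy and palm oil. The fish came from 8 tanks, 2 fish per tank and 4 tanks per diet, and each of 4 slides (A to D) held 2 fish per diet. Cy5 carried the RNA of the individual fish, and Cy3 carried the common reference, which was mixed from equal amounts of RNA of the 16 livers and was the same on every array. Livers came from fish whose weight gain was close to the mean of their tank, so the most divergent growers are not represented.

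Both probes were designed from rainbow trout sequence that matches the salmon sequence only in part, so the values below are those of the probes, and the qPCR of the study is not analysed here. The names mtco1 and mtco2 come from the study, which aligned the sequences behind the probes to known proteins. Since the deposited files do not pair probes with genes, other mitochondrial transcripts, nuclear subunits of the complex and markers of liver cells could not be looked up. In whole liver tissue, fewer cells of a type and less RNA per cell cannot be told apart. Between 21202 and 41311 spots per array were unflagged (median 30948), with the fewest on slides A and B, where local background was also highest. The median local Cy5 background of an array was 149.5 to 437 on slide A and 221.5 to 436 on slide B, compared with 56 to 114 on slide C and 1 to 94.5 on slide D. The array of high ω6 fish 4 stood apart, with an SD of its log2 ratios over all probes of 1.35, against 0.55 to 0.69 on the other 15 arrays.

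Both transcripts gave bright spots. The median Cy5 signal of mtco1, which is that of the fish, ranged from 1172 to 32363 scanner units (median 4710.5), and its Cy3 signal, which is that of the pool, from 8221 to 18016 (median 13114). For mtco2 the Cy5 signal ranged from 1691 to 27526 (median 4789) and the Cy3 signal from 8285 to 22176 (median 15706). By the median over arrays, the Cy5 signal of mtco1 was higher than that of 85.3% of the 25061 probes kept, and that of mtco2 was higher than 85.6%. In the pool these shares were 93.2% and 94.5%. Signals of different probes also depend on the probe, so these ranks describe brightness and not the number of transcripts. No spot of either probe was flagged or saturated on any array, and the Cy5 signal was 4.37 to 48.1 times the local background for mtco1 and 3.30 to 61.2 times for mtco2. The dimmest livers were therefore still measured above their background.

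The signal of the fish varied far more than that of the pool. Between the dimmest and the brightest array, the raw Cy5 signal differed 27.6-fold for mtco1 and 16.3-fold for mtco2, while the Cy3 signal, from the same pool on each array, differed 2.19-fold and 2.68-fold. The Cy5 signal of mtco1 was at least 22932 in 5 livers and at most 5360 in 9, with high ω3 fish 3 (10812) and high ω3 fish 4 (13094) between.

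**Figure D1:**
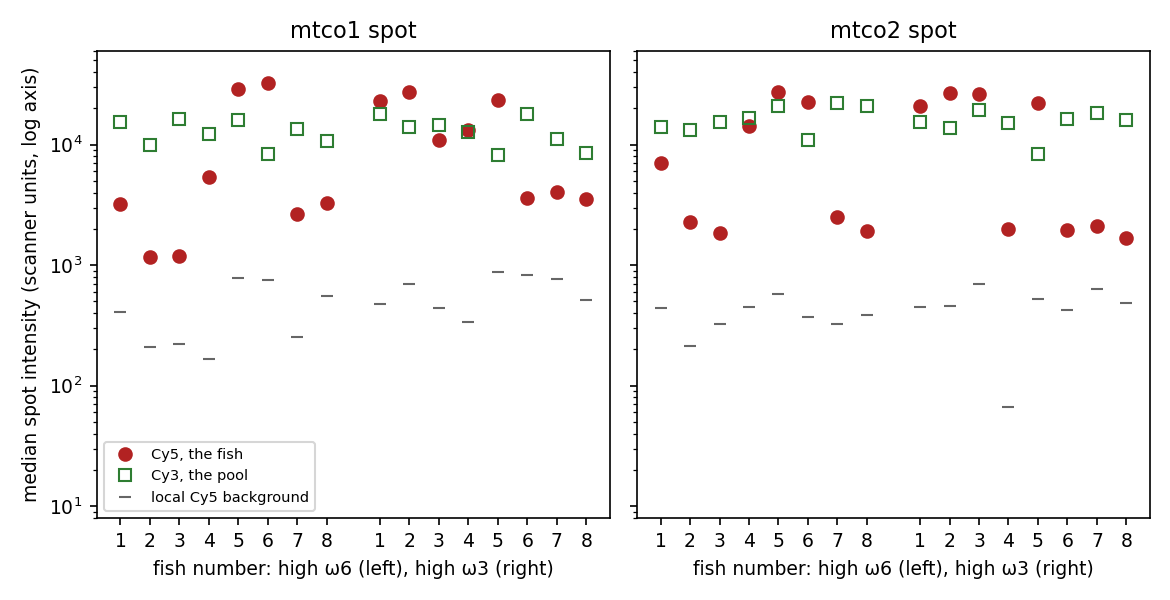
Median spot intensity of mtco1 (left) and mtco2 (right) on each array, in scanner units on a log axis, for high ω6 fish 1 to 8 and high ω3 fish 1 to 8. Filled circles are Cy5 (the fish), open squares are Cy3 (the reference pool) and dashes are the local Cy5 background. The squares stay within 2.19-fold (mtco1) and 2.68-fold (mtco2), while the circles spread over 27.6-fold and 16.3-fold.

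Values are given from here as the normalized log2 ratio of fish over pool, in which 0 is the level of the pool. In the high ω6 fish, the mtco1 log2 ratio was −2.29 in fish 1, −2.94 in fish 2, −3.45 in fish 3, −1.59 in fish 4, 1.49 in fish 5, 2.10 in fish 6, −2.37 in fish 7 and −1.98 in fish 8. In the high ω3 fish, it was 0.87 in fish 1, 1.24 in fish 2, −0.17 in fish 3, 0.43 in fish 4, 2.07 in fish 5, −2.26 in fish 6, −2.11 in fish 7 and −1.48 in fish 8. High ω6 fish 5 and 6 stood 3.08 above the other 6 fish of their diet, and no such wide gap divided the high ω3 fish, whose largest step was 1.31. The ranges of the diets overlapped, since the highest value of all was that of high ω6 fish 6, and high ω3 fish 6 and 7 lay among the low high ω6 fish.

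The mtco2 log2 ratio was −1.07, −2.37, −2.81, −0.46, 1.04, 1.19, −3.19 and −3.72 in high ω6 fish 1 to 8, respectively. It was 0.95, 1.26, 0.65, −2.37, 1.98, −2.96, −3.92 and −3.58 in high ω3 fish 1 to 8. High ω6 fish 5 and 6 were again the highest of their diet, here by 1.50, while a gap of 3.02 parted high ω3 fish 1, 2, 3 and 5 from the other 4 fish of that diet. The ranges of the diets overlapped for mtco2 as well.

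**Figure D2:**
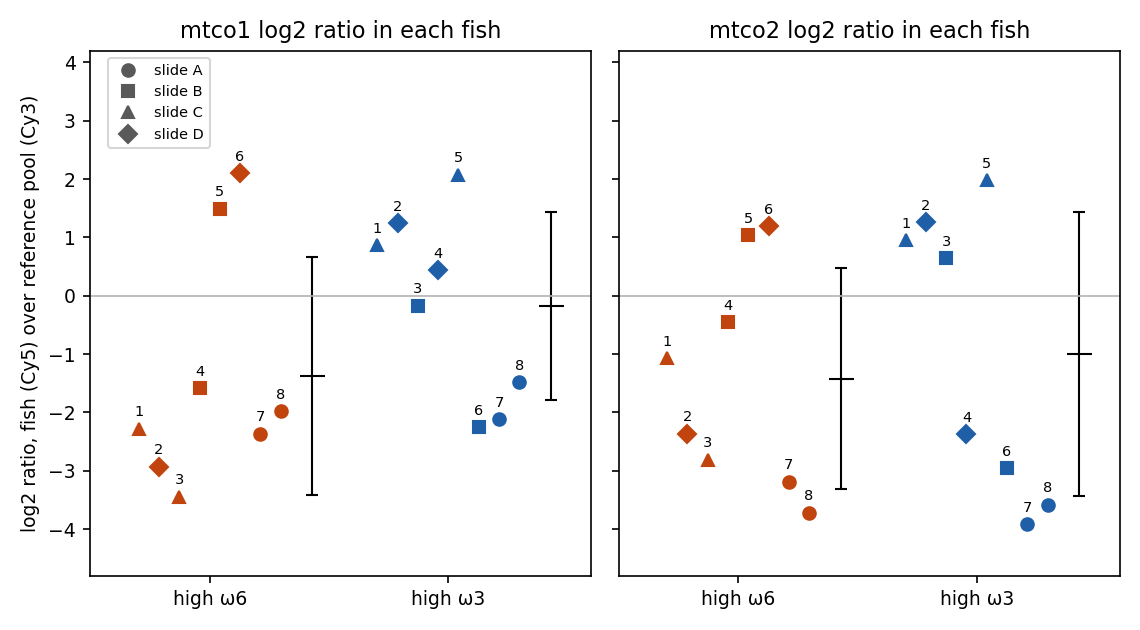
Normalized log2 ratio of fish over reference pool for mtco1 (left) and mtco2 (right) by diet, with the fish number beside each point and the slide as its shape; bars are the mean ± SD of the 8 fish of a diet. In both diets some fish lie above 0 and others below −1.4, and the bars overlap.

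From the lowest to the highest liver, the log2 ratio of the mtco1 probe spanned 5.54 (46.6-fold) and that of the mtco2 probe spanned 5.90 (59.6-fold). Each transcript was above the pool in 6 of 16 livers, and the median liver was below it, at −1.53 for mtco1 and −1.72 for mtco2. Both were above the pool in 5 livers, namely those of high ω6 fish 5 and 6 and high ω3 fish 1, 2 and 5. Both were below it in 9 livers. The remaining fish were split, as mtco1 was −0.17 and mtco2 was 0.65 in high ω3 fish 3, and mtco1 was 0.43 and mtco2 was −2.37 in high ω3 fish 4. On the linear scale, the mean ratio over the 16 fish was 1.23 for mtco1 and 1.02 for mtco2, where an equal pool would give 1 apart from normalization. For both transcripts this mean lay well above the median liver.

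The spread between fish of one diet was among the widest on the array. The SD within diets was 1.84 for mtco1 and 2.18 for mtco2, compared with a median of 0.51 over the 25061 probes. Only 34 probes had a larger SD than mtco1, and 3 had a larger SD than mtco2. Among the 3673 probes at least as bright as the dimmer of both, 22 and 2 had a larger SD. The probes were selected for a large difference between fish, so these ranks are a description. When the Cy5 signal alone was used, after subtraction of the median of the array, the SD within diets was 1.92 for mtco1 and 2.10 for mtco2 (median over probes, 0.64). The Cy3 signal treated in the same way had an SD over arrays of 1.02 and 0.79, compared with a median over probes of 0.76. The Cy5 SD was larger than that of 99.8% of probes for mtco1 and 99.96% for mtco2. For Cy3 these shares were 76.5% and 52.4%. Relative to other probes, the spread was therefore most unusual in the channel of the fish, although the Cy3 signal of mtco1 also varied more than that of most probes.

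**Figure D3:**
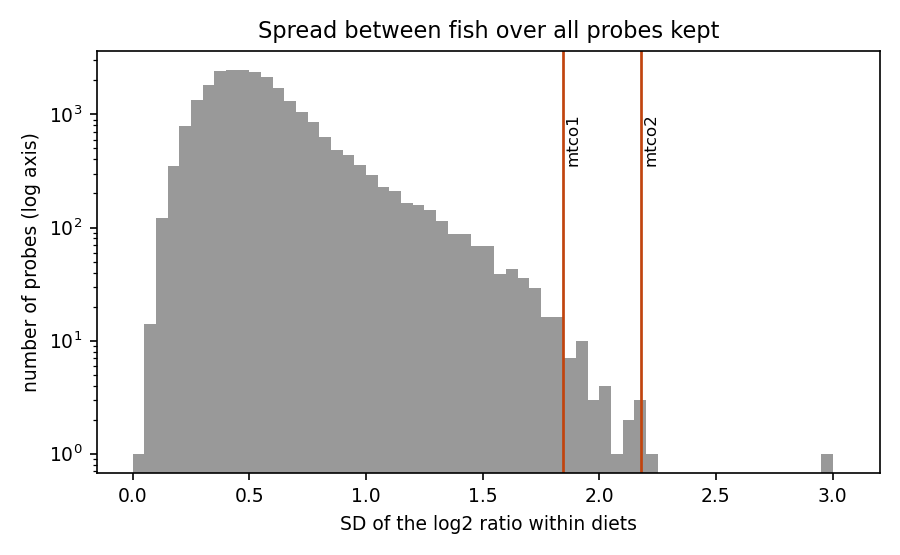
Number of probes (log axis) by the SD of their log2 ratio within diets, in log2 units, for the 25061 probes kept. Vertical lines mark mtco1 (1.84) and mtco2 (2.18), which are exceeded by 34 and 3 probes.

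To ask whether the transcripts rose and fell together between fish, the fish of the same diet on the same slide were first compared with each other, which takes away differences between diets and between slides. In 7 of 8 such pairs, the fish with more mtco1 also had more mtco2. The largest mtco1 gap was that of high ω6 fish 6 over fish 2 (5.03 for mtco1, 3.56 for mtco2), and a further example is high ω3 fish 3 over fish 6 (2.08 and 3.60). The exception was high ω6 fish 7 and 8 on slide A, which differed by only 0.39 in mtco1 and 0.53 in mtco2. The correlation within diet and slide was 0.82, and it was 0.76 to 0.90 when each pair was left out in turn. Exchanging the fish of a pair leaves the diet means unchanged, but the probes were listed by ranks in the fish of slides C and D. These pairs therefore include fish that served to choose both probes, and the values are a description with no test. Some pairs share tanks, so they are not fully independent.

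Over the fish of a diet, the relation depended on the distance between high and low fish. In the high ω6 fish, the set of 6 low fish and the set of 2 high fish from tank 21 were far apart, and r over all 8 (0.85, with a rho of 0.69) rested on these 2 fish. Among the 6 low fish alone, r was 0.38 and rho was 0.26. The 4 of these that were on slides B to D rose in the same order for both transcripts (fish 3, 2, 1 and 4), whereas fish 7 and 8, on slide A, had the lowest mtco2 of the diet at middle levels of mtco1. In the high ω3 fish, r was 0.88 and rho was 0.90, and r was 0.82 without the 2 fish farthest from the median of mtco1. The mtco2 values of the high ω3 fish lay in 2 sets of 4 fish. Each diet includes 4 fish whose values served to choose both probes, so these values are a description with no test.

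The study set slide A aside after an initial analysis listed no gene, which it put down to the high background of that slide. The 8 fish of slides A and B were not in the comparison that listed the probes. In these 8 fish, r was 0.84 (exact permutation p = 0.00655, not adjusted), but rho was 0.57 (exact permutation p = 0.151). Without the 2 fish farthest from the median of mtco1, high ω6 fish 5 and high ω3 fish 3, r fell to 0.39 (exact permutation, n = 6, p = 0.531). The relation on these slides rested on those fish. All of these tests treat fish as independent, although 2 fish of a tank may not be. They also exchange fish between slides A and B, so a difference between these slides enters r and p. The mean log2 ratio was −1.99 on slide A and −0.63 on slide B for mtco1, and −3.60 and −0.43 for mtco2. On slides B and C, the order of the 4 fish was the same for mtco1 and mtco2. On slide D, the 2 lower fish and the 2 higher fish were the same for both transcripts, with the order within each pair turned. High ω3 fish 4, one of the lower fish, was nevertheless above the pool in mtco1 (0.43) and far below it in mtco2 (−2.37). On slide A, where all 4 fish were low, the orders differed.

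**Figure D4:**
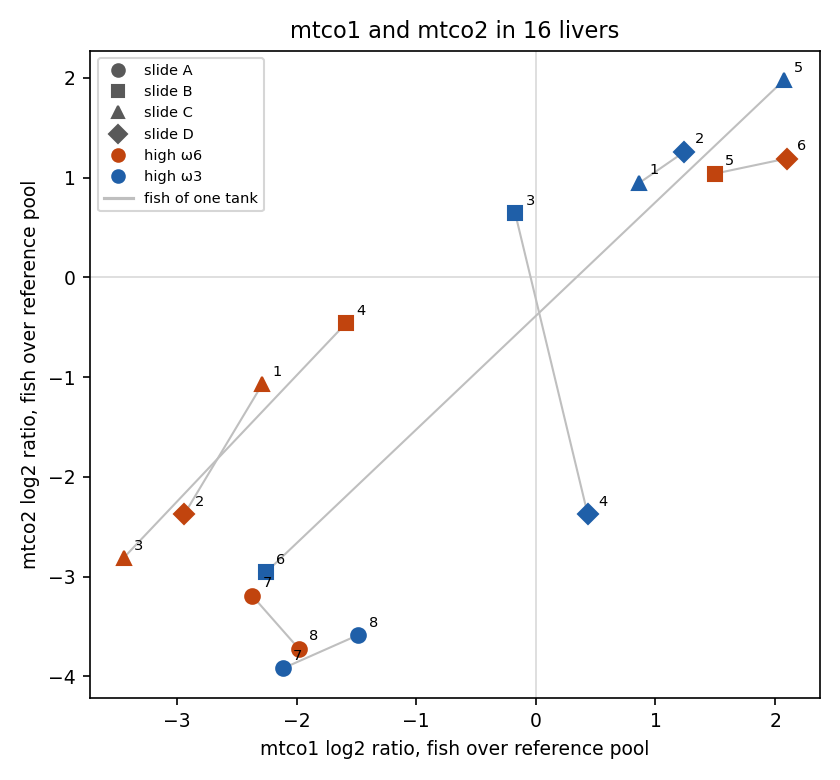
Log2 ratio of mtco2 (y axis) against that of mtco1 (x axis) in the 16 livers, fish over reference pool; colour gives the diet, shape the slide and the number the fish, and grey lines join the fish of a tank. The 5 livers at the upper right are above 0 in both, and the 4 fish of slide A lie together at the lower left, with mtco2 below mtco1.

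Over all 16 fish, r was 0.82 and rho was 0.70, given as a description because the shared selection of the probes adds to them. Without slide A, r was 0.84 (n = 12) and so was rho. Without high ω6 fish 4, they were 0.84 and 0.68 (n = 15). Without the 5 livers in which both transcripts were above the pool, r was 0.40 and rho was 0.12 (n = 11). Leaving out the high livers narrows the range of both transcripts, and 4 of the 11 fish left are those of slide A. The Cy5 signal alone gave an r of 0.86 over the 16 fish. The Cy3 signals of both spots, from the same pool on each array, also varied together when set against the median of the array (r = 0.95, n = 16). Set in this way, log2 Cy3 ran from 3.45 to 6.58 for mtco1 and from 3.86 to 6.52 for mtco2. The range of Cy5 was wider, from 1.52 to 6.55 for mtco1 and from 0.70 to 6.53 for mtco2. The log2 ratio of mtco1 had an r of 0.57 with its own local Cy5 background, and that of mtco2 had an r of 0.29. Their part in the covariation was not tested.

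For each transcript, the other was the most similar of the 7960 other probes unflagged on all 16 arrays, and the only probe with an r above 0.8. Next to mtco1 came C148R070 (r = 0.66) and C153R135 (r = 0.64), and next to mtco2 came C173R128 (r = 0.77) and C091R140 (r = 0.74), which the files do not name. These 4 probes varied much less between fish, with an SD within diets of 0.39 to 0.62. The closeness of mtco1 and mtco2 was less particular when differences between diets and slides were removed, and on slides A and B alone. Within diet and slide, with all 16 fish in 8 pairs, 24 of the 7960 probes were more similar to mtco1 than mtco2 was. For mtco2, 19 of the 7960 were more similar than mtco1 was. On slides A and B, 64 of 8452 probes (0.757%) were more similar to mtco1 and 204 (2.41%) were more similar to mtco2. For the other 10 probes that the study lists, r was −0.50 to 0.44 with mtco1 (median 0.14, 8 positive) and −0.45 to 0.71 with mtco2 (median −0.00, 4 positive). The highest of these, 0.71 with mtco2, was near the r of C091R140.

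Although they varied together, the transcripts were not in a fixed ratio. The log2 ratio of mtco1 minus that of mtco2 ranged from −1.22 in high ω6 fish 1 to 2.81 in high ω3 fish 4. It was close to 0 in high ω3 fish 1 (−0.08), fish 2 (−0.02) and fish 5 (0.10), all with both transcripts above the pool. On slide A, mtco2 was lower than mtco1 in each of the 4 fish, by 0.82 to 2.10.

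Slides differed more for mtco2 than for mtco1. On slide A the mean log2 ratio was −1.99 ± 0.37 (SD, n = 4) for mtco1 and −3.60 ± 0.31 (SD, n = 4) for mtco2, and all 4 values of mtco2 were below those of the other 12 fish. The means of the other 3 slides were −0.63, −0.70 and 0.21 for mtco1 and −0.43, −0.24 and −0.57 for mtco2, with SDs of 1.66 to 2.59 and 1.80 to 2.13. With diet in the model, slide accounted for F = 1.29 in mtco1 (limma, unadjusted p = 0.315, adjusted p = 0.645). For mtco2, F was 4.21 (limma, unadjusted p = 0.0237, adjusted p = 0.262). Neither of the 2 probes was called, in a test that called 1.18% of 24916 probes at an adjusted p of 0.10 or less. Slide A held both fish of tanks 24 and 26 and no others, so for these fish slide and tank cannot be told apart.

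Fish of the same tank often had similar levels, for mtco2 mainly in tanks 2, 21, 24 and 26. In tank 21, mtco1 was 1.49 and 2.10 and mtco2 was 1.04 and 1.19, although these fish were on different slides. In tank 2, again on different slides, mtco1 was 0.87 and 1.24 and mtco2 was 0.95 and 1.26. Tank 20 was the opposite case, with high ω3 fish 5 above high ω3 fish 6 by 4.33 in mtco1 and 4.93 in mtco2, the widest gap within a tank for both. The median gap within a tank was 0.62 for mtco1 and 0.92 for mtco2, compared with 2.01 and 2.69 over the 48 pairs of fish of different tanks on the same diet. The test of tanks, chosen after the values had been seen, used the sum of squares within tanks and not these medians. It counted the arrangements of fish over tanks within diets in which that sum was as small or smaller. It did not pass 0.05 (exact permutation, 11025 arrangements, p = 0.0708 for mtco1 and p = 0.0823 for mtco2). Without slide A, which held tanks 24 and 26, the median gap for mtco1 was 0.63 within a tank and 2.16 between tanks. For mtco2 these medians were 1.83 and 2.01, so they were close. The same test without slide A gave p = 0.182 for mtco1 and p = 0.387 for mtco2 (exact permutation, 6 tanks).

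**Figure D5:**
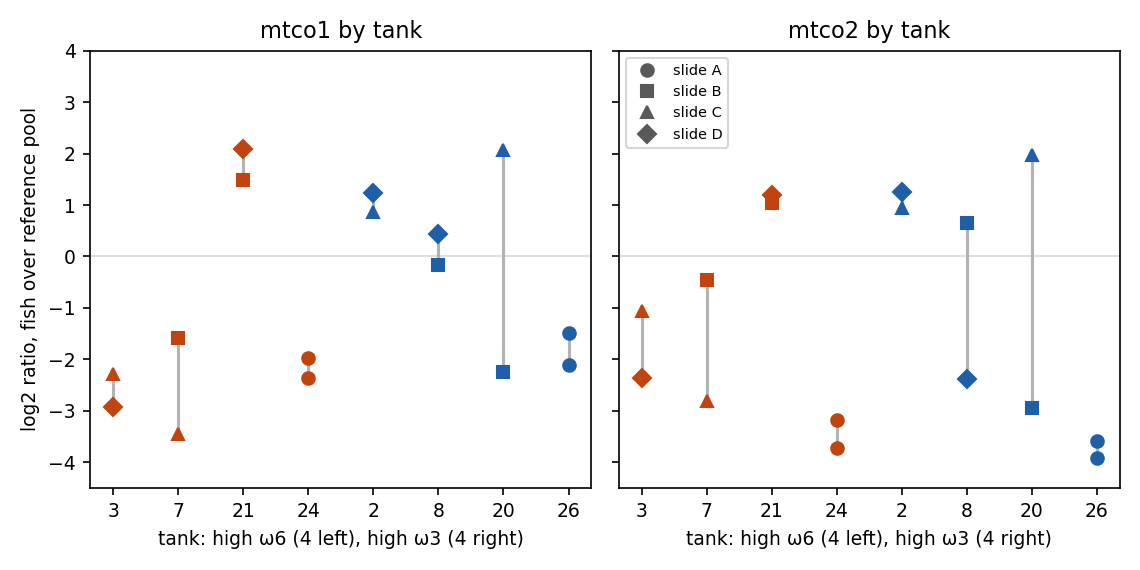
Log2 ratio of mtco1 (left) and mtco2 (right), fish over reference pool, by tank, with the fish of a tank joined by a line; the 4 tanks at the left of each plot were fed the high ω6 diet (orange) and the 4 at the right the high ω3 diet (blue), and shape gives the slide. Tanks 2, 21, 24 and 26 have short lines for both transcripts, and tank 20 has the longest.

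Of the sum of squares of mtco1, 66.6% lay between tanks of a diet, 22.5% between fish of a tank and 10.8% between diets. For mtco2 these shares were 68.3%, 30.6% and 1.07%. Taken alone, slides held 18.5% of the sum of squares of mtco1 and 45.7% of that of mtco2. These shares overlap those of tanks, since tanks 24 and 26 lay wholly on slide A. With 16 fish in 8 tanks, tanks take 6 of the 15 degrees of freedom, so a large share lies between them by construction. The F test for tank within diet gave F = 5.69 for mtco1 (limma, adjusted p = 0.140) and F = 4.42 for mtco2 (limma, adjusted p = 0.211), and called neither of the 2 probes, against 2.12% of 21101 probes. Leaving out high ω6 fish 3 or 4 (tank 7) or high ω3 fish 5 or 6 (tank 20) raised both F. Without high ω3 fish 6, F was 21.5 for mtco1 and 10.7 for mtco2. These tanks had the widest gaps in mtco1 (1.86 and 4.33), and their gaps in mtco2 were 2.35 and 4.93. A tank left with 1 fish adds no gap, so leaving out a fish of these tanks lowers the spread within tanks and draws F up. These fits therefore cannot show whether tanks differ.

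The diets were tested on slides A and B, whose 4 fish per diet were not in the comparison that listed the probes. The study removed slide A after an initial analysis listed no gene, and drew lists both with and without slide B. The choice of slides was thus not independent of diet results, and neither are these tests. On slides A and B, the high ω6 fish had a mtco1 log2 ratio of −1.11 ± 1.77 (SD, n = 4), compared with −1.51 ± 0.95 (SD, n = 4) for the high ω3 fish. The difference, high ω6 minus high ω3, was 0.40 (SE 0.80), which was smaller than the spread between fish (exact permutation, two-sided, p = 0.743; limma, adjusted p = 0.999). The mtco2 log2 ratio was −1.58 ± 2.26 (SD, n = 4) on the high ω6 diet and −2.45 ± 2.10 (SD, n = 4) on the high ω3 diet, and differed by 0.87 (SE 1.20; exact permutation, p = 0.629; limma, adjusted p = 0.999). The smallest p that 4 against 4 fish allow in this test is 0.0286. Limma called neither of the 2 probes and 0% of 24969 probes at the same threshold. Of the 24969 probes, 492 had an unadjusted p (limma) below 0.05, fewer than the share of 0.05 that chance alone would give. Without high ω6 fish 5, the only fish of these slides in which both transcripts were above the pool, the differences were −0.47 for mtco1 and −0.0031 for mtco2. The SDs and SEs above also include the difference between slides A and B. With all 8 fish and slide in the model, the differences stayed at 0.40 for mtco1 (SE 0.71) and 0.87 for mtco2 (SE 0.71). The adjusted p was then 0.991 for both (limma).

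On slides C and D, which served to choose the probes, the high ω6 fish averaged −1.64 ± 2.54 (SD, n = 4) for mtco1 and the high ω3 fish averaged 1.15 ± 0.70 (SD, n = 4), with a difference of −2.80 (SE 1.14, 6.95-fold lower). For mtco2, they averaged −1.26 ± 1.80 (SD, n = 4) and 0.45 ± 1.93 (SD, n = 4), with a difference of −1.72 (SE 1.14, 3.29-fold lower). Leaving out 1 of the 8 fish moved these differences between −4.04 and −2.20 for mtco1 and between −2.66 and −1.20 for mtco2. The value of −4.04 was obtained without high ω6 fish 6, the high ω6 fish of these slides with the highest level.

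The difference between diets was not the same from slide to slide. On slide C, high ω6 minus high ω3 was −4.34 for mtco1 and −3.40 for mtco2, and the 2 fish of each diet did not overlap. It was −1.26 and −0.03 on slide D, 1.17 and 1.45 on slide B, and −0.38 and 0.30 on slide A, with overlapping diets on each of these 3 slides. Over slides B to D, the difference was −1.48 for mtco1 and −0.66 for mtco2. Over all 4 slides, mtco1 averaged −1.38 ± 2.04 (SD, n = 8) with the high ω6 diet and −0.18 ± 1.62 (SD, n = 8) with the high ω3 diet, and differed by −1.20 (SE 0.82). The averages of mtco2 were −1.42 ± 1.90 (SD, n = 8) and −1.0 ± 2.43 (SD, n = 8), and differed by −0.42 (SE 0.96). Both sets of fish include those used for the choice, so no test is given.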

How the data were processed

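Liver RNA of 16 fish was measured on 16 two-channel arrays. The authors quantified the scans with ImaGene 9.0 and deposited, for each spot, the median intensity of signal and local background in Cy5 and Cy3, without background subtraction, with flags for empty and poor spots. The authors also deposited log2 ratios (Cy5 over Cy3), loess-normalized within arrays after removal of flagged spots, which were used as an alternative source of values. The lowest r of an array between both sources was 0.995.

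Here flagged spots were set to missing, limma 3.58.1 (R 4.3.3) was used to correct the median signals with normexp (offset 50) and to normalize each array by loess. Probes unflagged on at least 12 arrays were kept. Normexp with an offset draws low ratios towards 0, so fold differences of dim spots are understated. Diets, slides and tanks were compared with limma over all probes kept, with Benjamini-Hochberg adjustment and the study's threshold of 0.10. Single values were tested with exact permutation at 0.05, computed with numpy 2.4.6, with ranks from scipy 1.17.1. The study's SAM and Rank Products tools were not used here. Slide and tank were read from the names of the deposited files, and slides were lettered A to D in ascending order of their number. Diet and fish number came from the sample labels. Tests treat fish as independent and do not take shared tanks into account. Precision is limited by how many arrays there were.

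The members and lists were chosen with earlier results of these data known. Besides mtco1 and mtco2, the named probes are, for each, the 2 with the highest r over the 16 fish. The alternatives were other background corrections, median centring, flagged spots kept, measurement on all 16 arrays, the deposited table, blocks, tank means and each fish left out. The comparison of tanks, the Cy5 signal alone, the mean signal of a spot, leaving out fish with both transcripts above the pool, and the slide and tank tests on probes measured on all arrays were chosen after seeing the data. Scripts were tested on simulated data with 200 changed probes.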

Additional observations from a re-analysis of the deposited data

Results flagged for a closer look

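Among 14 groups of 8 values examined (log2 ratios, Cy5 and Cy3 signals of both spots, and the SD of each array's log2 ratios, per diet), 1 held a value far from the rest. The array of high ω6 fish 4 had an SD of log2 ratios over all probes of 1.35, while the nearest other high ω6 array had 0.68 and the lowest had 0.58. Chance marks about 1 in 20 such groups. On this array the log2 ratio was −1.59 for mtco1 and −0.46 for mtco2, inside the range of the other high ω6 fish. No value of mtco1 or mtco2 itself stood apart in this way in either diet.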

How the results depend on the processing

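Of 222 recalculations, 203 kept their direction and their side of the threshold, 3 became weaker, 11 became stronger, 2 counts moved and 3 differences reversed. The diet difference of mtco1 on slides A and B was −0.38 with fish number as a replicate block (limma, adjusted p = 0.790), where only 2 numbers are shared by both diets; mtco2 gave 0.30, and 646 probes were called with 1 residual degree of freedom, in place of 0. Fish numbers were not taken as pairs, since no label ties a number to a shared source and 1 of 8 correlations of deviations between same-numbered fish was under 0.1. All 8 were positive (0.05 to 0.50), and 5 of 8 fish correlated best with their own number, which was seen in the data only. Numbers 1, 2, 7 and 8 lay on the same slide in both diets, and the highest correlations, 0.45 and 0.50, were those of numbers 7 and 8. Whether a shared slide enters these correlations was not tested. Leaving out 1 fish gave −0.47 to 0.84 for mtco1, −0.0031 to 1.90 for mtco2 (both lowest without high ω6 fish 5) and 0 to 1 called probes (1 without high ω6 fish 8). The correlation of both transcripts fell to 0.38 in the high ω6 fish, both without the 2 fish farthest from the median and without those above the pool in both, which were the same fish, and to 0.39 on slides A and B without the 2 farthest fish. The causes were not tested. The F of tank within diet for mtco1 rose to 6.39 with mean signals (limma, adjusted p = 0.0988), to 6.21 with the deposited table (limma, adjusted p = 0.0721) and to 5.84 with the probes unflagged on all 16 arrays (limma, adjusted p = 0.085), fits that called 1.95%, 4.68% and 4.95% of the probes tested. Leaving out 1 fish gave F of 3.19 to 21.5 for mtco1 and 3.10 to 10.7 for mtco2. The stronger cases were those without high ω6 fish 3 or 4 or high ω3 fish 5 or 6, from the tanks with the widest mtco1 gaps. When 1 fish is left out, its tank holds 1 fish and adds no gap, so these fits cannot show whether tanks differ. That fish is assumed to vary like the others. Without slide A the adjusted p of tank was 0.771 for mtco1 and 0.834 for mtco2, and with slide in the model it was 0.246 and 0.336 (limma). The correlation within diet and slide was 0.79 to 0.83 under the other settings, and the spread within diets was 1.81 to 1.89 for mtco1 and 2.09 to 2.26 for mtco2. Both spots were above local background on every array, the dimmest at 3.30 times (mtco2), and 4 fish per diet limited the test of diet.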
